A study of Mus musculus with 12 samples.

Results

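The 10 genes described here belong to the interleukin-1 (IL-1), tumour necrosis factor (TNF) and prostaglandin systems and were followed through 12 mouse pancreas libraries. They were taken by symbol from a list of 10, and all 10 were found among the 49585 genes that each library lists. The list holds the IL-1 family ligands Il1a, Il1b and Il33 with the antagonist Il1rn, the cytokine Tnf, the receptors Tnfrsf1a and Tnfrsf12a, and the prostaglandin enzymes Ptgs1, Ptgs2 and Ptges. All 10 passed the filter on low counts, and no library had a count of 0 for any of them.

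The libraries are RNA of whole pancreas from C57Bl6 mice aged 2 to 4 months, either controls (called wild type here) or Atf3-/- animals, a line that lacks a stress-induced transcription factor. Every mouse had 4 injections within 4 h, of saline or of cerulein at 50 ug/kg, and the pancreas was taken at 4 h. Cerulein is an analogue of the hormone cholecystokinin that overstimulates acinar cells and is used to start acute pancreatitis in mice. Each of the 4 groups has 3 animals with 1 library each, namely W1, K5 and R3 (wild type, saline), O1, O3 and N3 (wild type, cerulein), S1, K4 and Q1 (Atf3-/-, saline) and C2, C3 and L4 (Atf3-/-, cerulein). The labels do not say how the Atf3 allele was made.

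IL-1 and TNF are the early cytokines of inflammation. Both signal through NF-kB in the cells that receive them, and Il1rn encodes the secreted antagonist that occupies the IL-1 receptor without activating it. Prostaglandins are made in steps: a cyclooxygenase (the constitutive Ptgs1 or the inducible Ptgs2) converts arachidonic acid to prostaglandin H2, and Ptges, the inducible microsomal synthase, turns that into prostaglandin E2. In acute pancreatitis these mediators come both from injured acinar cells and from resident and recruited leukocytes.

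Library totals ran from 18292997 to 32158629 counts. Levels are given as CPM, counts scaled to 1000000 of the library size after TMM scaling, and a comparison of groups as a log2 fold change ± its standard error (SE) with a Benjamini-Hochberg adjusted p over 14329 genes from edgeR's quasi-likelihood test, called below 0.05. The labelled deletion did not show in gene-level counts: Atf3 itself stood at 1.13 to 5.28 CPM in wild-type saline, 394 to 775 in wild-type cerulein, 7.44 to 23.1 in Atf3-/- saline, and 1375, 20.7 and 1636 in C2, C3 and L4. The second genotype is therefore called the labelled knockout, and a gene-level count cannot tell an intact transcript from one that lacks part of the gene. Library C3 stood apart from C2 and L4, and N3 from O1 and O3, so results that rest on either are given with and without it. The 12 acinar markers, none at 0 in any library, summed to 401124 to 480783 CPM in wild-type saline and 264396 to 346703 in wild-type cerulein. They summed to 357719 to 534332 in Atf3-/- saline. In Atf3-/- cerulein the sums were 332717 in C2 and 273925 in L4, below all saline libraries, and 446744 in C3.

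In wild-type mice cerulein raised 3 of the 10 genes. Tnfrsf12a, the receptor of the cytokine TWEAK, rose 40.8-fold, the inducible cyclooxygenase Ptgs2 rose 8.63-fold, and Tnfrsf1a, the main TNF receptor, rose 2.13-fold. None of the 10 fell. In the same comparison 5 of the 12 acinar markers were called lower and none higher, while 4 of 7 duct markers were called higher and 1 lower. The summed duct markers, none at 0, were 199 to 272 CPM in wild-type saline and 280 to 465 in wild-type cerulein, and 193 to 243 and 276 to 366 in the saline and cerulein groups of the labelled knockout. The part of these shifts in the 3 rises was not tested. Of all 14329 genes tested, 17.9% were called higher and 12.8% lower, and with 10 genes a count of 3 is not far from that share. The median log2 fold change was 1.46 over the 10 genes and 0.05 over all genes. Without N3 these medians were 1.03 and -0.02. The cytokines Il1a, Il1b and Tnf varied among animals of 1 group by more than the groups differed, and none of them was called in any comparison or alternative.

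The promoters of Tnfrsf12a and Ptgs2, the called genes with the widest response, are shown with that of Il1b, whose groups overlapped. Each is the 250 bases before the RefSeq start of the gene on GRCm38.p6, read 5′ to 3′ on the gene's strand: Tnfrsf12a at chr17:23677450-23677699 on the minus strand, Ptgs2 at chr1:150099781-150100030 on the plus strand, and Il1b at chr2:129371140-129371389 on the minus strand. Capitals mark the motifs found on either strand.
Tnfrsf12a: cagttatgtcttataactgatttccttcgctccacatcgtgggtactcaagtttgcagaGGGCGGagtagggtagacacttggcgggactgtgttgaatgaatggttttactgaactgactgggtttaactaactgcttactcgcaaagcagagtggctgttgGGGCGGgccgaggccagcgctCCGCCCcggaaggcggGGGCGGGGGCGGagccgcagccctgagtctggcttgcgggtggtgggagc
Ptgs2: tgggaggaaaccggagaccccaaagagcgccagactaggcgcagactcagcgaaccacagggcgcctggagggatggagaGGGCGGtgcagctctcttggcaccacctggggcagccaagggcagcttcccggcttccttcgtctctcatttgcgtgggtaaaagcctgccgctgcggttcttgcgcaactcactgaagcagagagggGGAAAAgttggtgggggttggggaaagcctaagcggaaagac
Il1b: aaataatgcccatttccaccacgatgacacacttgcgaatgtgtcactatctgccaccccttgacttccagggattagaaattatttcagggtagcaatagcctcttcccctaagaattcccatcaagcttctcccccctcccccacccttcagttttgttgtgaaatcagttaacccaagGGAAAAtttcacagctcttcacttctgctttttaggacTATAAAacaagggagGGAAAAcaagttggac
The letters searched, on both strands, were the NF-kB consensus, AP-1 (TGANTCA), the cAMP response element (TGACGTCA) and its shorter form TGACG, which every full element contains, the NFAT core (GGAAAA), the GC box (GGGCGG) and the TATA box (TATAAA). The Tnfrsf12a window held 5 GC boxes, at 191, 87, 66, 50 and 44 bases before the start, and no TATA box. Ptgs2 had 1 GC box at 170 and 1 NFAT core at 42 bases. The Il1b window held a TATA box at 31 bases and NFAT cores at 69 and 16 bases, and no GC box.
RefSeq gave 13 such windows for the 10 genes, 3 of them for Il1rn and 2 for Il33. A GC box was in 4 of the 13 and in 32.7% of all 32851 promoter windows of this length, a TATA box in 5 and in 12.4%, an NFAT core in 4 and in 20.4%, and AP-1 in 2 and in 6.75%. The NF-kB consensus (3.9% of all windows), the full cAMP response element (1.55%) and its shorter form (17.8%) were in none of the 13. A match or its absence describes these letters in this window.

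**Figure D1:**
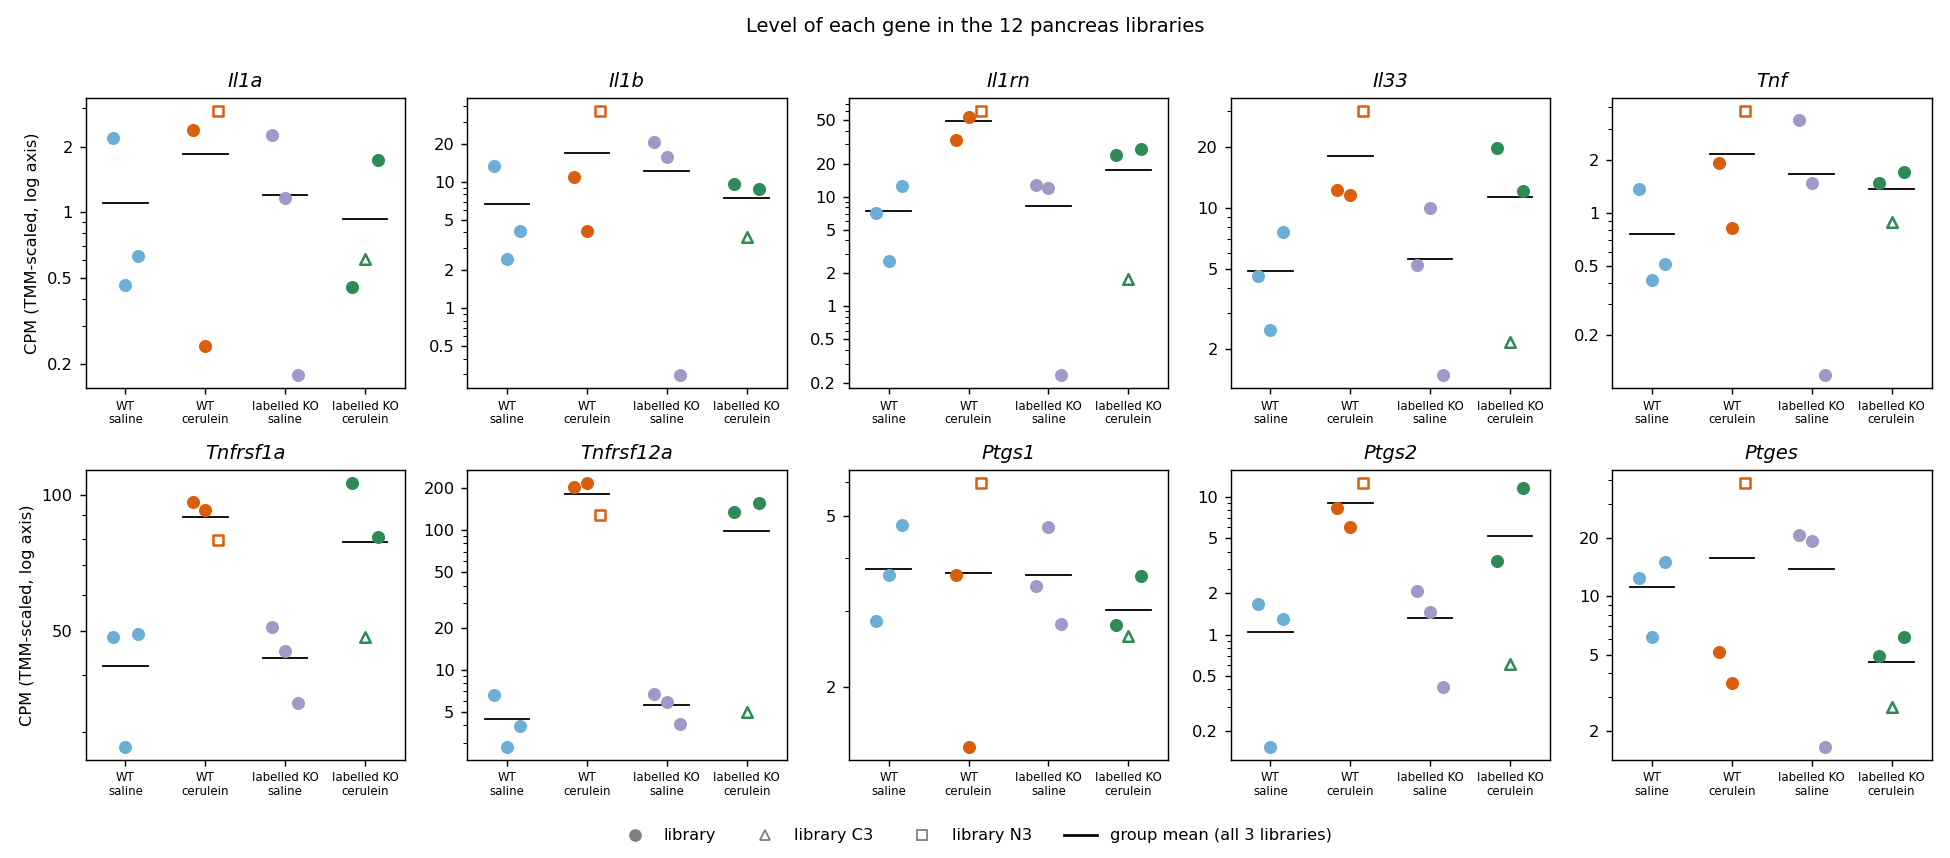
CPM of each gene (log axis) in the 12 libraries by group. Each symbol is 1 library and the bar is the mean of 3; C3 (triangle) and N3 (square) are open. Tnfrsf12a, Tnfrsf1a, Ptgs2, Il1rn and Il33 are higher in all cerulein libraries but C3 than in every saline library, and N3 is the highest library for 8 of the 10 genes.

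Il1a and Il1b encode the 2 activating IL-1 cytokines and lie near each other on chromosome 2 (Il1b at chr2:129364570-129371139, Il1a at chr2:129299610-129309972, GRCm38). Il1b stood at 13.5, 2.47 and 4.06 CPM in wild-type saline, 10.9, 4.11 and 36.2 in wild-type cerulein, 20.6, 15.7 and 0.298 in labelled-knockout saline, and 9.71, 3.66 and 8.85 in C2, C3 and L4. The highest library was N3 and the lowest Q1, a saline library with 5 counts, and every pair of groups overlapped. The fold change of Il1b in wild type was 1.37 ± 1.10 on the log2 scale (edgeR adjusted p = 0.369), and 0.19 ± 1.13 (adjusted p = 0.92) without N3. Il1a was at or below 2.9 CPM in all libraries, with 0.242 (O3) to 2.9 (N3) in wild-type cerulein and 0.462 (K5) to 2.2 (W1) in wild-type saline. Its groups overlapped too, with a log2 fold change of 0.79 ± 0.97 (edgeR adjusted p = 0.572). The exons of Il1a share 222 bases with the opposite-strand gene Gm14023 and those of Il1b share 25 with the antisense gene Il1bos. The strand setting of the counting is not given in the sources used here, so reads from these partners cannot be told apart.

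Il1rn, the antagonist of both cytokines (chr2:24336853-24351494), was at 7.11, 2.57 and 12.4 CPM in wild-type saline and 32.6, 53.1 and 60.0 in wild-type cerulein. Labelled-knockout levels were 12.7, 11.9 and 0.238 with saline and 24.1 (C2), 1.78 (C3) and 27.0 (L4) with cerulein. The wild-type cerulein libraries were all above the saline ones, and so were C2 and L4, while C3 was below 5 of the 6 saline libraries. The wild-type log2 fold change was 2.71 ± 1.09 and missed the threshold (edgeR adjusted p = 0.0816). Without C3 the same fold change had an SE of 0.90 and an adjusted p of 0.0398. Although from the other genotype, C3 enters the spread that all groups share in the fit, a biological coefficient of variation of 0.357 with C3 and 0.304 without.

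Il33 encodes an alarmin of the IL-1 family that is kept in the nucleus and released by damaged cells (chr19:29925114-29960718). It stood at 4.59, 2.47 and 7.56 CPM in wild-type saline and 12.3, 11.6 and 30 in wild-type cerulein, and at 5.23, 9.93 and 1.49 against 19.8 (C2), 2.16 (C3) and 12.1 (L4) in the labelled knockout. Again the wild-type groups did not overlap, nor did C2 and L4 with their saline group. The wild-type log2 fold change was 1.87 ± 0.80 (edgeR adjusted p = 0.0986), and passed with DESeq2 (adjusted p = 0.0371) and in edgeR without C3 (adjusted p = 0.0488). Without N3 it was 1.28 ± 0.84 (adjusted p = 0.278).

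Tnf (chr17:35199381-35202007) was the scarcest ligand beside Il1a, from 2 counts in Q1 to 107 in N3. It measured 1.36, 0.411 and 0.512 CPM in wild-type saline and 1.92, 0.823 and 3.79 in wild-type cerulein. Labelled-knockout libraries had 3.39, 1.47 and 0.119 with saline and 1.47, 0.891 and 1.72 with cerulein. All 4 groups overlapped. The 2 counts in Q1 have a 95% exact Poisson interval of 0.0144 to 0.43 CPM, which covers counting error only, since reads without molecular tags are not independent molecules. The log2 fold change in wild type was 1.55 ± 0.88 (edgeR adjusted p = 0.204), and in the labelled knockout -0.30 ± 0.84 (adjusted p = 0.842).

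Both receptors were called. Tnfrsf1a (chr6:125349362-125362484) stood at 48.6, 27.9 and 49.4 CPM in wild-type saline and 96.5, 92.3 and 79.3 in wild-type cerulein. The labelled knockout had 51.1, 45.3 and 34.8 with saline and 106 (C2), 48.6 (C3) and 80.7 (L4) with cerulein. Each cerulein library but C3 was above all 6 saline libraries, and C3 was among them. Tnfrsf1a rose by 1.09 ± 0.30 on the log2 scale in wild type (edgeR adjusted p = 0.0213). The call was lost without K5 (adjusted p = 0.0783), O1 (0.0641) or O3 (0.0645), at fold changes of 0.87 to 1.07.

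Tnfrsf12a (chr17:23675445-23677468) had the widest response. With saline it was at 6.6, 2.83 and 3.98 CPM in wild type and 6.74, 5.92 and 4.11 in the labelled knockout. With cerulein it reached 202, 216 and 127 in wild type, and 134 (C2) and 156 (L4) in the labelled knockout, where C3 stayed at 4.97. C3 was thus within the saline range and every other cerulein library at least 127 CPM. Tnfrsf12a rose by 5.35 ± 0.98 (edgeR adjusted p = 0.00918) in wild type and stayed called in every alternative, with 0.0406 as the highest adjusted p when 1 library was left out. Its ligand Tnfsf12 (TWEAK) was low, at 1.18 to 1.81 CPM with saline and 0.849 to 1.22 with cerulein in wild type (log2 fold change -0.46 ± 0.36, edgeR adjusted p = 0.361).

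Of the cyclooxygenases, Ptgs2 (chr1:150100031-150108227) was at 1.68, 0.154 and 1.30 CPM in wild-type saline and 8.29, 6.05 and 12.6 in wild-type cerulein. Levels in the labelled knockout were 2.09, 1.47 and 0.417 with saline and 3.40 (C2), 0.61 (C3) and 11.6 (L4) with cerulein. No saline library reached the lowest cerulein library other than C3. Ptgs2 rose by 3.11 ± 0.99 in wild type (edgeR adjusted p = 0.0358). This call was the most fragile of the 3. Without any 1 of the 6 wild-type libraries the adjusted p was 0.0645 to 0.103, at fold changes of 2.60 to 3.58. It was 0.0554 with limma-voom and 0.0934 in edgeR with no filter on low counts. Ptgs1 (chr2:36230426-36252272) was flat, at 2.85, 3.65 and 4.77 CPM in wild-type saline and 3.65, 1.45 and 5.98 in wild-type cerulein. Its groups overlapped, and the log2 fold change was -0.02 ± 0.42, an interval of 2 SE from -0.87 to 0.82 (edgeR adjusted p = 0.976). Ptgs1 shares 148 exon bases with the opposite-strand model Gm43621.

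Ptges (chr2:30889471-30929863) showed how far 1 library can carry a mean. It was at 12.5, 6.16 and 15.1 CPM in wild-type saline and at 5.16 (O1), 3.58 (O3) and 38.7 (N3) in wild-type cerulein. The labelled-knockout values were 20.8, 19.4 and 1.67 with saline and 4.91, 2.67 and 6.20 with cerulein. O1 and O3 were below all wild-type saline libraries, N3 above every other library. The log2 fold change was 0.49 ± 0.93 with N3 (edgeR adjusted p = 0.725) and -1.36 ± 0.83 without it (adjusted p = 0.241), so its direction in edgeR changed without N3. With limma-voom it was -0.19 ± 0.99 with N3 kept. The labelled-knockout fold change was -1.60 ± 0.96 (adjusted p = 0.32).

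The 5 genes Il1rn, Il33, Tnfrsf1a, Tnfrsf12a and Ptgs2, had all 3 wild-type cerulein libraries above all 3 saline ones, where 27.5% of the genes tested did. These 5 were also higher in C2 and L4 than in the labelled-knockout saline libraries (29.3% of genes). They were higher in the 5 cerulein libraries other than C3 than in all 6 saline libraries (20.5% of genes). With C3 left out, edgeR called these 5 in wild type, against 21.3% of the 14733 genes tested there. DESeq2 with all libraries called 4 of them (20.2% of genes), without Il1rn, and limma-voom called Tnfrsf12a and Tnfrsf1a (15.8% of genes). Each called all 5 without C3 (21.6% of genes with DESeq2, 20.7% with limma-voom), as did edgeR with only the wild-type groups in the fit (24.4% of genes). Without N3, edgeR called Tnfrsf12a and Tnfrsf1a (16.4% of genes). In O1 and O3 alone the 5 genes were above wild-type saline (33.9% of genes) and Ptges below it (32% of genes).

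Among labelled-knockout animals no gene of the 10, and 0% of all genes, was called by edgeR with all libraries. At an unadjusted p under 0.05 there were 2, Tnfrsf12a and Tnfrsf1a, and 22.7% of all genes. DESeq2 called Tnfrsf12a (adjusted p = 1.7e-05, where 8.65% of genes were called higher), and limma-voom called none. The edgeR values with C3 included were 4.13 ± 0.92 for Tnfrsf12a (adjusted p = 0.086), 1.95 ± 0.94 for Ptgs2 (0.239) and 0.85 ± 0.30 for Tnfrsf1a (0.136).
Without C3, edgeR called these 3 higher, where 18.7% of genes were. Tnfrsf12a rose by 4.69 ± 0.36 (adjusted p = 1.87e-05), Ptgs2 by 2.47 ± 0.79 (0.0415) and Tnfrsf1a by 1.10 ± 0.26 (0.00887). Il1rn, at 1.61 ± 0.94 (adjusted p = 0.232), and Il33, at 1.51 ± 0.70 (0.137), did not pass. The 3 were also called with DESeq2 without C3 (18.5% of genes) and by edgeR without C3 and N3 (19.9%), while limma-voom without C3 called 2 (18.1%). The median of the 10 genes was 0.51 and that of all genes 0.00.

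**Figure D2:**
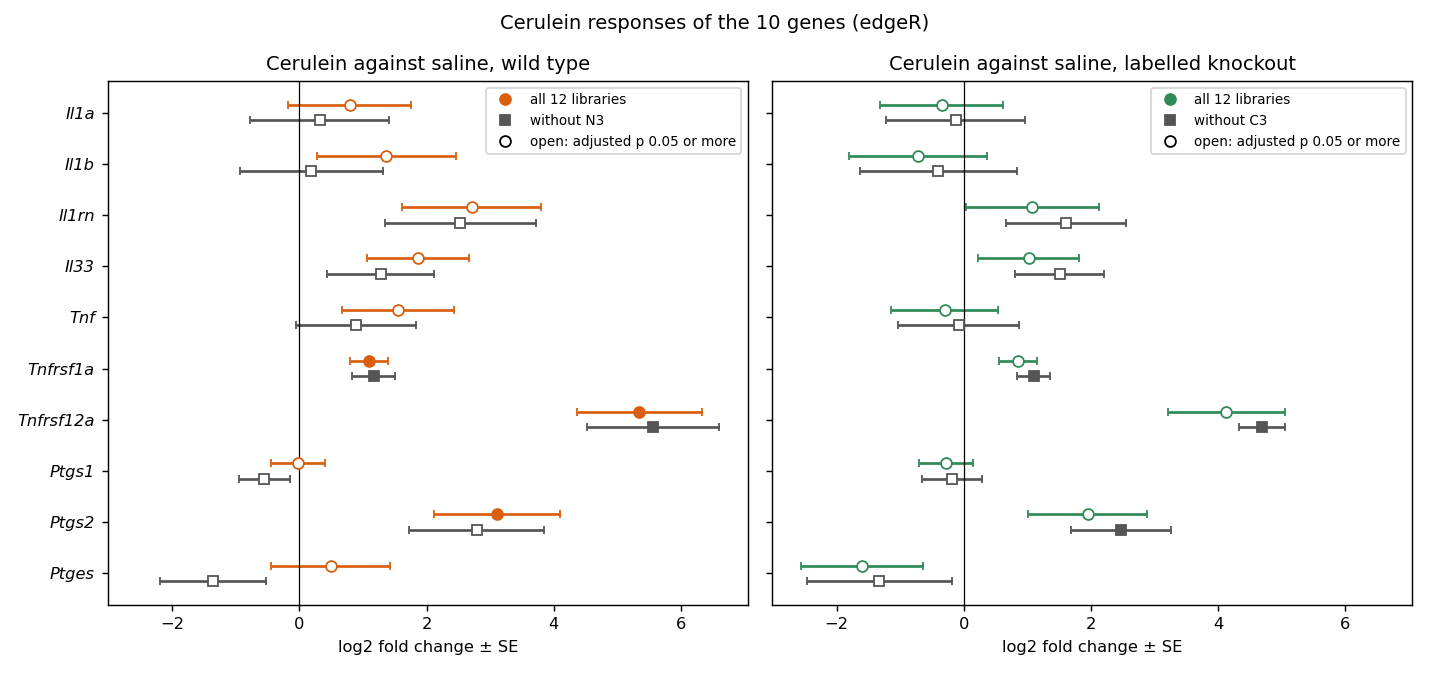
Log2 fold change ± SE of cerulein against saline for each gene, in wild type (left; all libraries and without N3) and in the labelled knockout (right; all libraries and without C3). Filled symbols have an edgeR adjusted p under 0.05: Tnfrsf12a, Ptgs2 and Tnfrsf1a in wild type with all libraries and in the labelled knockout without C3, and Tnfrsf12a and Tnfrsf1a in wild type without N3. Ptges is at 0.49 in wild type with N3 and at -1.36 without it.

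The labelled knockout and wild type did not differ detectably in any of the 10 genes. edgeR called 0 of them, and 0% of all genes, between genotypes with saline, between genotypes with cerulein, and for the difference of the 2 cerulein responses. None of the 10 had an unadjusted p under 0.05 in these 3 comparisons. DESeq2 and limma-voom also called 0 of the 10. Of all genes DESeq2 called 0% with saline, 0.0768% with cerulein and 0.00698% for the difference of responses, and limma-voom 0% in each. DESeq2 gave Ptges an unadjusted p under 0.05 between genotypes with cerulein. That difference rested on N3: in edgeR it was -1.78 ± 0.96 with all libraries and 0.08 ± 0.80 without N3. The intervals were wide with 3 animals a group. Without C3 the response of Tnfrsf1a differed by 0.01 ± 0.35, with 2 SE reaching from -0.69 to 0.71 on the log2 scale, and that of Tnfrsf12a by -0.67 ± 0.47, from -1.60 to 0.26 (edgeR adjusted p = 0.999 for both). For Il1b the same interval ran from -5.13 to 1.58, and for Ptgs2 from -2.83 to 1.54. With all libraries the intervals were -1.09 to 0.60 (Tnfrsf1a), -3.56 to 1.11 (Tnfrsf12a), -5.16 to 0.99 (Il1b) and -3.79 to 1.48 (Ptgs2). Without C3 and N3 the response of Tnfrsf12a differed by -0.88 ± 0.43, from -1.74 to -0.02 (edgeR unadjusted p = 0.0695). It was not called, and Tnfrsf1a was at -0.07 ± 0.37 there. The 2 responses do not share control libraries.

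Ratios of 2 genes inside 1 library, per kilobase of exon, do not depend on how libraries are scaled to each other. Ptgs2 to Ptgs1 was 0.0358 to 0.517 with saline (6 libraries) and, leaving C3 aside, 1.03 to 3.53 with cerulein (5 libraries). Ptgs2 was above Ptgs1 in O1, O3, N3 and L4 (1.79 to 3.53). The 1.03 was in C2, from 90 Ptgs2 and 74 Ptgs1 counts, too near 1 to order the 2 genes there. C3 was at 0.197. Ptges to Ptgs2 shares Ptgs2 with the ratio to Ptgs1, so these ratios are not independent. This ratio went the other way, from 4.66 to 46.6 with saline to 0.625 to 3.58 in the same 5 libraries, with C3 at 5.11. Here N3, at 3.58, lay between the next cerulein library (C2, 1.68) and the lowest saline library (Q1, 4.66), and its Ptges level was the highest of all. The Q1 ratio rested on 28 Ptges and 7 Ptgs2 counts, and the 46.6 of K5 on 3 Ptgs2 counts.
Tnfrsf12a to Tnfrsf1a was 0.108 to 0.182 with saline and 1.69 to 3.15 with cerulein, C3 again apart at 0.137. Il1rn to Il1b overlapped between treatments, at 0.181 to 1.06 with saline and 0.572 to 4.45 with cerulein, with C3 at 0.168. No test was run on these ratios.

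**Figure D3:**
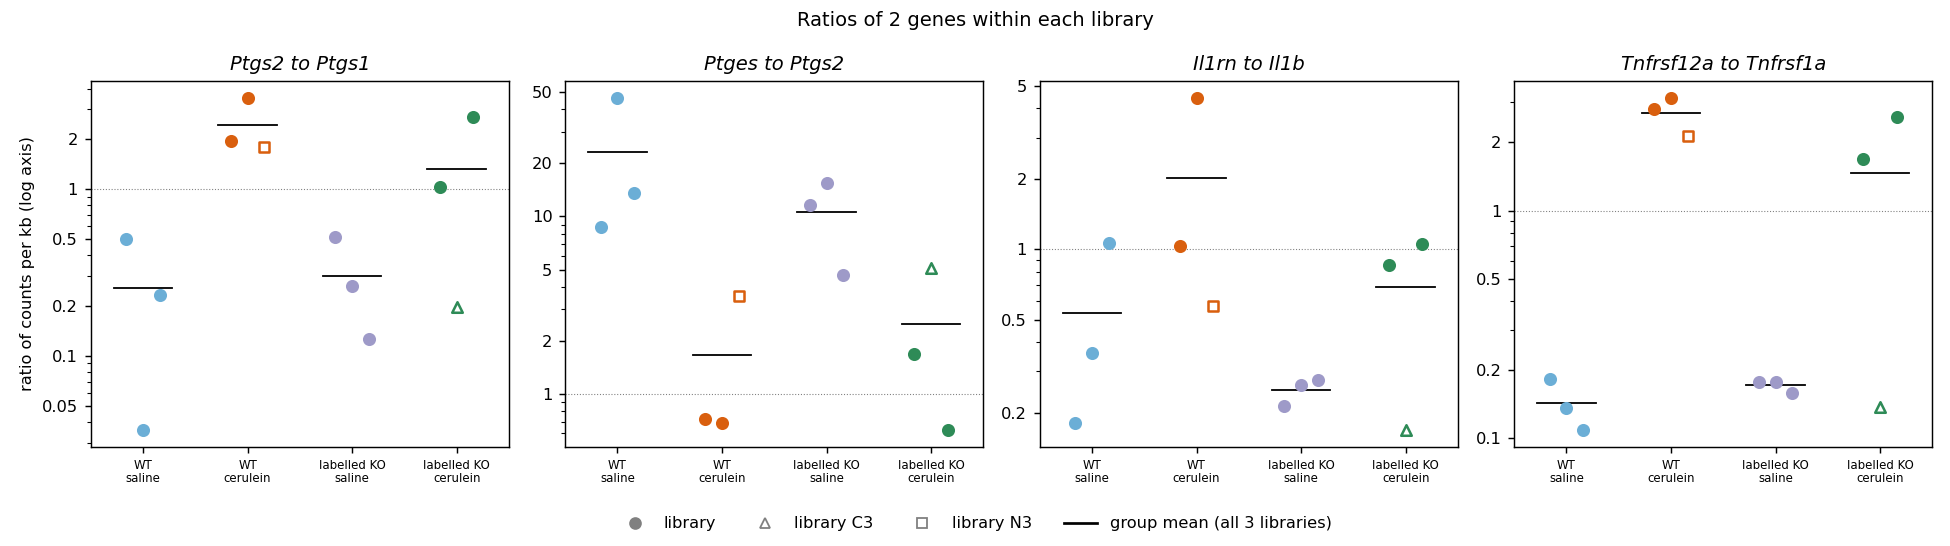
Ratio of 2 genes' counts per kilobase of exon (log axis) in each library, by group, with the mean of 3 as a bar and a dotted line at equal levels. For Ptgs2 to Ptgs1, Ptges to Ptgs2 and Tnfrsf12a to Tnfrsf1a the 5 cerulein libraries other than C3 are apart from all 6 saline libraries, while C3 (triangle) is among them.

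Per kilobase of exon, Tnfrsf1a was the most abundant of the 10 in wild-type saline, at 16.2 ± 4.70 CPM per kb (SD, n = 3), with no overlap with Il1b, the next at 3.5 ± 3.13. From Il1b down each gene overlapped the next, through Ptges, Tnfrsf12a, Il33, Il1rn, Ptgs1, Il1a and Tnf to Ptgs2 at 0.228 ± 0.174. With cerulein the order in wild type began with Tnfrsf12a, at 94.1 ± 25 CPM per kb, and Tnfrsf1a, at 34.5 ± 3.46. Neither overlapped the gene after it. Il1b, Il1rn, Il33, Ptges, Ptgs2, Tnf, Ptgs1 and Il1a followed, and each of them overlapped its neighbour. Tnfrsf12a moved from the fourth place to the first.

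N3 was the highest of the 12 libraries for 8 of the 10 genes, where 10.4% of all genes had their maximum there. Q1 was the lowest for 6 of the 10 (10.7% of genes), and S1 the highest saline library for 8 of the 10 (16.8% of genes). The macrophage and monocyte markers and the neutrophil markers were also highest in N3, and among the saline libraries in K4. Lymphocyte markers were highest in N3 (569 CPM) and, among the saline libraries, in W1 (309). Mast cell markers were highest in K4 (31.5 CPM), with 13.1 in N3. The summed level of 13 macrophage and monocyte markers, none of them at 0 in any library, was 620 CPM in N3, 494 in K4, 302 in S1, 115 in Q1 and 99.9 in C3, and by group 145 to 238 (wild-type saline), 223 to 620 (wild-type cerulein), 115 to 494 (labelled-knockout saline) and 99.9 to 277 (labelled-knockout cerulein).
The 11 neutrophil markers summed to 149 CPM in N3, 106 in K4, 45.9 in S1 and 3.75 in Q1. They ranged by group from 10.6 to 35.6, 19.6 to 149, 3.75 to 106 and 5.81 to 53.4, in the same order. Camp and Mpo were at 0 in all 12 libraries, Elane in all but R3 and C2, and Ly6g in W1, K5, Q1, C3 and L4. In the wild-type comparison edgeR called 1 of the 13 macrophage and monocyte markers and 0 of the 6 neutrophil markers that passed the filter. Of the 9 other lists beside the acinar and duct markers, none had a marker called higher, and the mast cell and endothelial lists had 1 each called lower. The part of leukocytes in the levels of Il1a, Il1b, Tnf and Il1rn was not tested. In whole tissue, fewer cells of a type and less RNA per cell cannot be told apart.
Ptges is set beside another list here. The 10 adipocyte markers summed to 40.3 (O1), 37.6 (O3) and 504 CPM (N3) in wild-type cerulein and to 144 to 230 in wild-type saline. In labelled-knockout saline they were at 142 (S1), 703 (K4) and 78.6 (Q1), where Ptges was at 20.8, 19.4 and 1.67 CPM. They were at 50.2 to 74.3 in labelled-knockout cerulein. Other lists also put N3 above O1 and O3: mast cell markers (3.02 in O1, 2.81 in O3, 13.1 in N3) and lymphocyte markers (37.2, 8.86 and 569). The marker Adipoq was at 0 in Q1, 0.0368 CPM in O1 and 0.145 in O3, against 59.1 in N3, and Plin1 was at 0 in O3, Q1 and C2. Whether fat in the dissected tissue bears on Ptges was not tested.

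**Figure D4:**
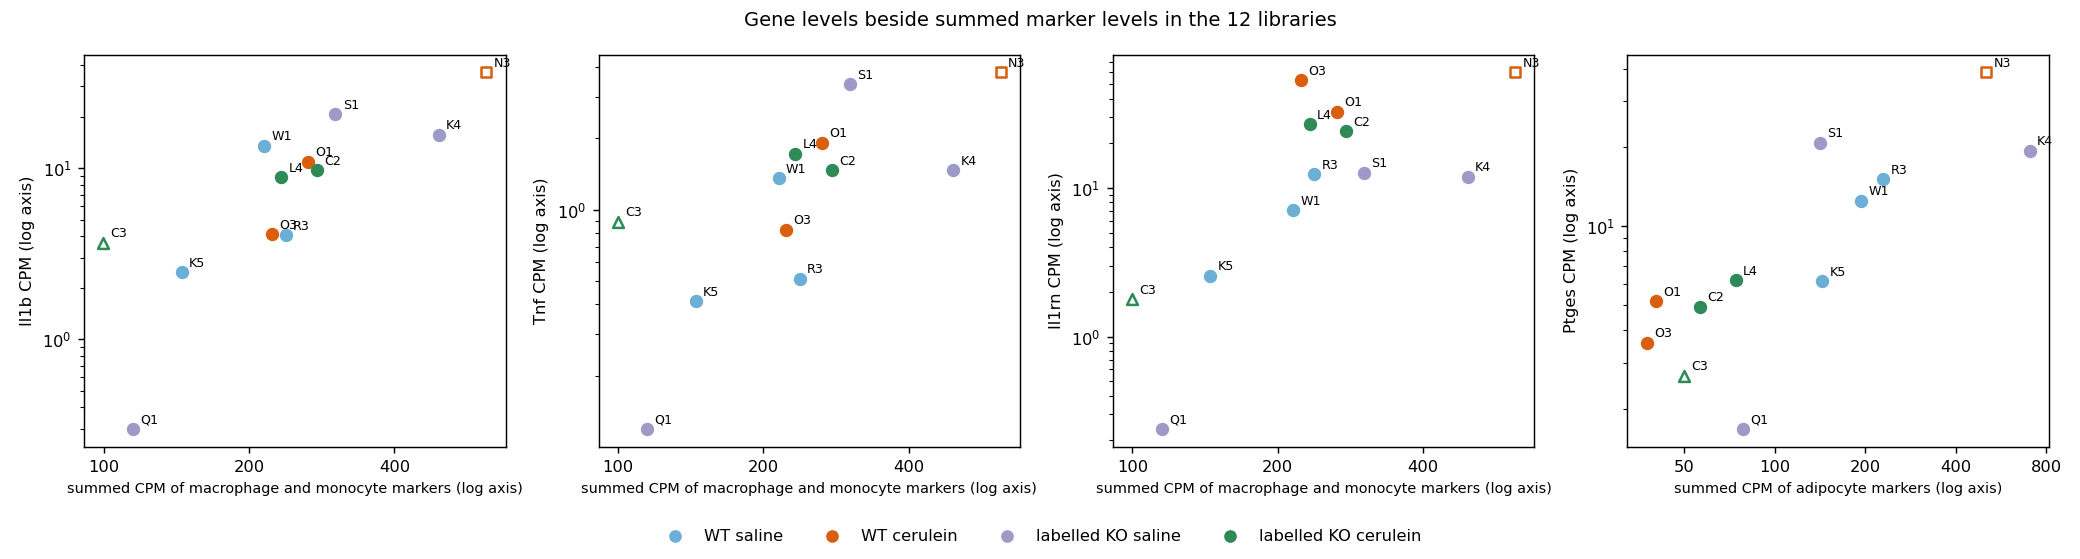
Each library's CPM of Il1b, Tnf and Il1rn against its summed CPM of 13 macrophage and monocyte markers, and of Ptges against its summed CPM of 10 adipocyte markers (both axes log; colours are groups). N3 is highest and Q1 lowest for all 4 genes. The lowest macrophage and monocyte sum is in C3 (99.9 CPM, with 115 in Q1). The lowest adipocyte sum is in O3 (37.6 CPM, with 78.6 in Q1).

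The genes with profiles most like those of the 3 called genes were taken from 11943 genes with a mean of at least 1 CPM, by the root mean square difference of centred log2 CPM over the 12 libraries. For Tnfrsf12a they were Fdx1 (0.28), an electron carrier for steroid and bile acid synthesis, the cytoplasmic actin Actg1 (0.317) and the kinase Dyrk3 (0.388), with 2.53 as the median over all genes. Actg1 went from a mean of 72.7 CPM in wild-type saline to 2753 in wild-type cerulein and stood at 111 in C3. For Tnfrsf1a they were Rab20 (0.119), Pfn1 (0.133), which encodes the actin-binding protein profilin, and the myosin light chain Myl6 (0.142), against a median of 0.701. For Ptgs2 they were the aggrecan-cleaving protease Adamts4 (0.475), Tnfaip6 (0.518), a hyaluronan-binding protein induced by TNF and IL-1, and the endothelial adhesion molecule Sele (0.543), against a median of 1.74.

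Around these members, 28 other genes of IL-1 family signalling were listed, of which 24 passed the filter. In wild type 3 were called higher and 1 lower, with a median log2 fold change of 0.41. Of all genes 17.9% were called higher and 12.8% lower, with a median of 0.05. The list median rested on N3: without N3 it was -0.01, and -0.02 over all genes. Irak3, a brake on the IL-1 receptor complex, rose by 1.65 ± 0.43 (edgeR adjusted p = 0.0175). Irak2, a kinase of that complex, rose by 1.5 ± 0.50 (0.0447), and the ubiquitin ligase Traf6 by 0.53 ± 0.13 (0.014). Sigirr, a decoy-like receptor that dampens IL-1 and Toll-like receptor signals, fell by 0.96 (SE 0.24, adjusted p = 0.0144), from 5.51 to 6.53 CPM with saline to 2.72 to 3.54 with cerulein.
The call of Irak2 was lost in 11 alternatives, and that of Irak3 without K5 (adjusted p = 0.068). Traf6 lost its call without R3 (0.062) or O3 (0.055), and Sigirr without O3 (0.05). The signalling receptor Il1r1 was at 6.92, 11.6 and 16.8 CPM in wild-type saline and 28.2, 22.4 and 38.3 in wild-type cerulein, without overlap (1.33 ± 0.68, edgeR adjusted p = 0.158). Il1r1 passed in wild type with only those groups in the fit (0.0261), without L4 (0.0378) and with DESeq2 without C3 (0.0127). In the labelled knockout without C3 edgeR also called it higher, at 1.81 ± 0.54 (adjusted p = 0.0315), with 17.5 CPM in C2 and 69.2 in L4 against 9.47 to 16.8 with saline. The decoy receptor Il1r2 (1.48 ± 1.07, adjusted p = 0.318), the co-receptor Il1rap (0.54 ± 0.38, 0.308) and the IL-33 receptor Il1rl1 (-0.31 ± 0.85, 0.809) did not pass in wild type.

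Of 35 other genes of the TNF superfamily and its signalling, 30 passed the filter. In wild type 5 were called higher and 2 lower (17.9% and 12.8% of all genes), with a median of 0.67. That median rested on N3: without N3 it was -0.28, and -0.02 over all genes. Tnfrsf23, a decoy receptor for TRAIL, was at 0.276 to 0.719 CPM with saline and 4.14 to 15.2 with cerulein in wild type, and rose by 4.34 ± 1.01 (edgeR adjusted p = 0.0124). It has a close paralog beside it in its gene cluster, so its counts are uncertain, and it lost the call without R3 (0.0521) and with limma-voom (0.0877). The TRAIL death receptor Tnfrsf10b rose by 1.94 ± 0.50 (adjusted p = 0.017), the soluble decoy Tnfrsf11b by 1.81 ± 0.61 (0.0439), and the adaptor Traf2 by 1.03 ± 0.28 (0.0192).
Ripk1, the kinase below TNF receptor 1, rose by 0.81 ± 0.18 (adjusted p = 0.0107), from 15.1 to 17.3 CPM to 26.2 to 31.9, and kept its call in every alternative. Fadd, the death-domain adaptor, fell by 1.24 (SE 0.39, adjusted p = 0.0352) and the death receptor Tnfrsf21, named after its value was seen as the other gene called lower, by 0.72 (SE 0.25, 0.045). The calls of Tnfrsf10b, Tnfrsf11b, Traf2, Fadd and Tnfrsf21 were each lost without at least 3 of the libraries in turn, with adjusted p up to 0.0664, 0.144, 0.0692, 0.112 and 0.157. Tnfrsf1b, the TNF receptor of leukocytes, was at 40.7 CPM in N3 and 6.58 to 13.7 in the other wild-type libraries (0.80 ± 0.74, adjusted p = 0.441). In the labelled knockout without C3, edgeR called 4 higher and 2 lower (18.7% and 10.5% of all genes), among them Tnfrsf23 (3.91 ± 0.54, adjusted p = 0.000445) and Ripk1 (0.73 ± 0.14, 0.00379).

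Of 34 other genes of prostaglandin and leukotriene synthesis, breakdown, transport and sensing, 24 passed the filter. In wild type 2 were called higher and 2 lower (17.9% and 12.8% of all genes), with a median of -0.06. Without N3 the median was -0.46, and -0.02 over all genes. The cytosolic prostaglandin E synthase Ptges3, also the HSP90 co-chaperone p23, rose by 0.84 ± 0.19 (edgeR adjusted p = 0.0115), from 18.3 to 24.6 CPM to 33.2 to 42.0. The aldose reductase Akr1b3, which can make prostaglandin F2 alpha, rose by 0.72 ± 0.18 (0.0161). Cbr1, a carbonyl reductase that acts on prostaglandin E2, fell by 1.10 (SE 0.26, adjusted p = 0.0125) and the prostaglandin E2 receptor Ptger3 by 1.43 (SE 0.48, 0.0447).
Ptges3 and Cbr1 kept their calls in every alternative. The call of Akr1b3 was lost when any of O1, O3, K5 and R3 was dropped (edgeR adjusted p = 0.0506 to 0.0658) and Ptger3 lost it in 11 alternatives, with an adjusted p of up to 0.123.
Hpgd, the enzyme that inactivates prostaglandins, was at 6.73, 7.14 and 5.04 CPM in wild-type saline and 1.51, 1.74 and 1.73 in wild-type cerulein. The labelled knockout was at 11.8, 6.37 and 4.23 with saline and at 0.68 (C2), 6.66 (C3) and 1.02 (L4) with cerulein. The cerulein libraries other than C3 were all below the saline ones. Its log2 fold change in wild type was -1.92 ± 0.72 with all libraries (edgeR adjusted p = 0.0644) and had an SE of 0.35 without C3 (adjusted p = 0.00156). With all libraries Hpgd passed as lower with DESeq2 (adjusted p = 0.0206) and limma-voom (0.0488), and with only the wild-type groups in the edgeR fit (0.000551). It also passed without C2 (0.0369) or L4 (0.049). Without C3 Hpgd fell by 3.12 (SE 0.43, adjusted p = 0.000431) in the labelled knockout.
The prostaglandin E2 receptor Ptger4 (-0.67 ± 0.24, edgeR adjusted p = 0.0575) passed as lower in 8 alternatives, among them DESeq2 (0.0424) and edgeR without C3 (0.0393). The phospholipase Pla2g4a, which frees arachidonic acid (0.61 ± 0.65, edgeR adjusted p = 0.505), and the synthase Ptges2 (-0.11 ± 0.19, 0.697) did not pass in wild type. In the labelled knockout without C3, edgeR called 1 of 26 genes of this list higher and 4 lower (18.7% and 10.5% of all genes). With C3 it called 0 of all 3 lists there, as it did of all genes.

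**Figure D5:**
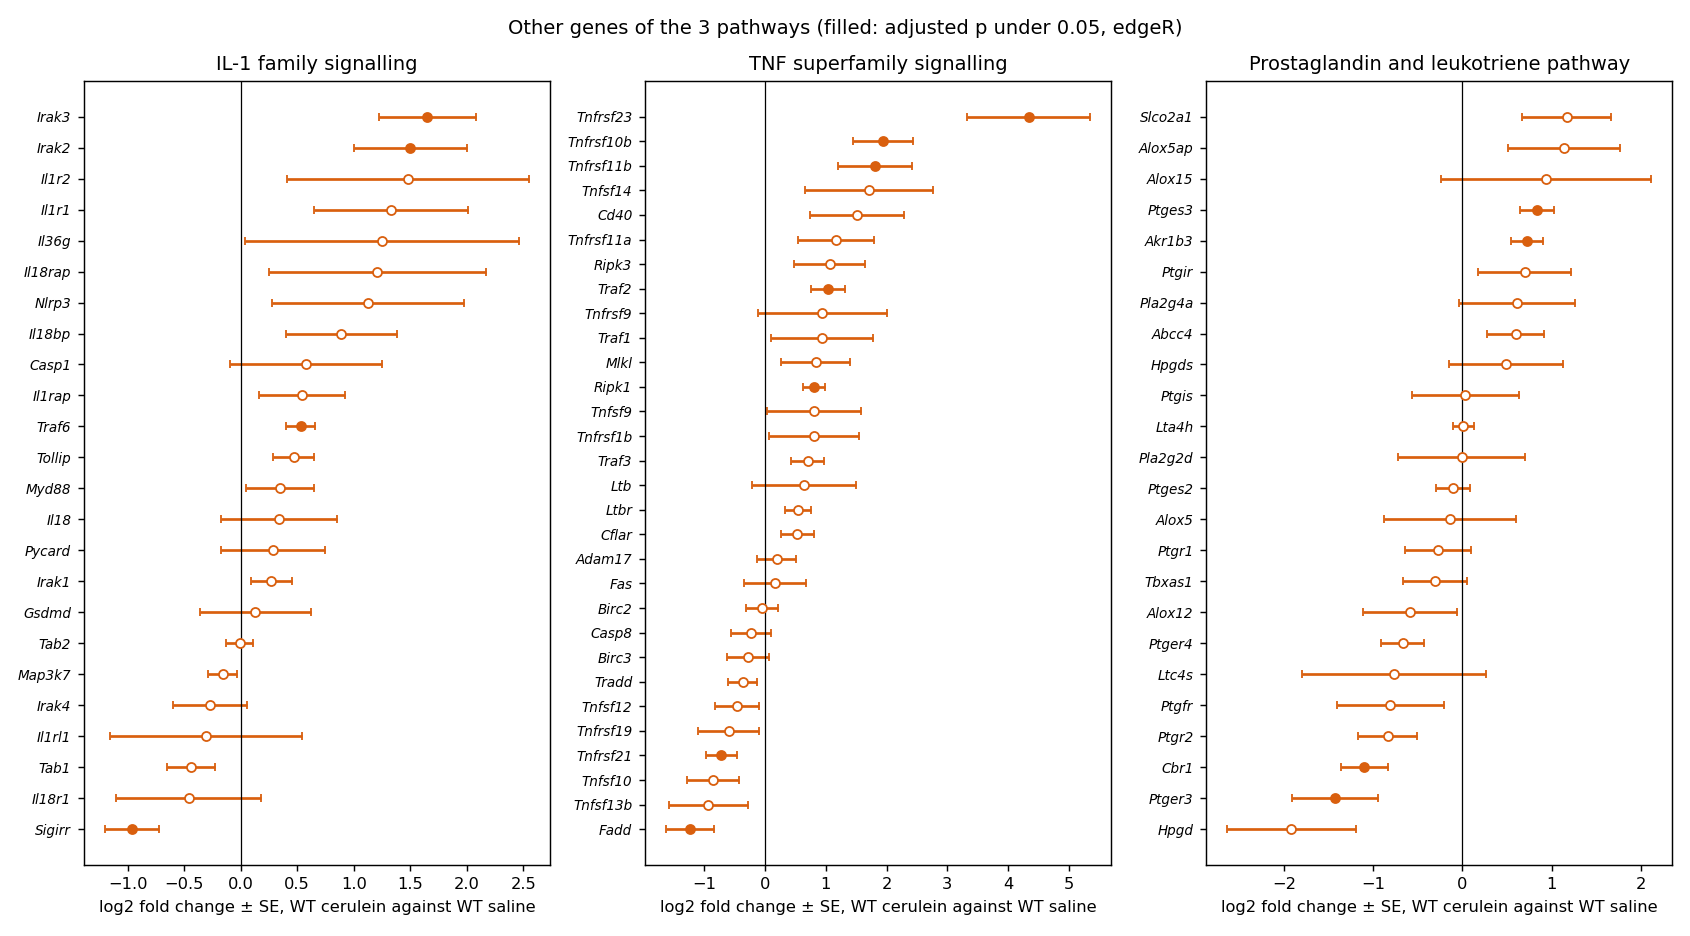
Log2 fold change ± SE in wild type, cerulein against saline, for the 24, 30 and 24 other genes of the 3 pathways that passed the filter. Filled symbols have an edgeR adjusted p under 0.05, and Tnfrsf23, at 4.34, is the farthest from 0.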

How the data were processed

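RNA of whole pancreas was sequenced with a stranded kit for total RNA, per the labels' protocols. Each deposited file gives 1 whole-number count for each Ensembl gene, not normalized by the authors. HTSeq, DESeq2 and mm10 appear in the submitters' processing notes, with no version or role. For the aligner, annotation release and strand setting, the entry is: not given in the sources used here. Of 49585 genes, 49326 matched GENCODE M21 by identifier. Totals were 18292997 to 32158629 counts per library, and no library pair of 1 group agreed within sampling noise.

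Genes were kept by filterByExpr, scaled by TMM and tested in 1 robust quasi-likelihood model of the 4 groups (edgeR 4.0.16, two-sided, Benjamini-Hochberg adjustment over all genes, threshold 0.05). Alternatives used other scalings and filters, only the 2 groups compared, DESeq2 1.42.0, limma-voom (limma 3.58.1) and each library left out. DESeq2 and limma-voom without C3 were added after the data were seen. The fit was also run on simulated counts with an equal spread for all genes and no library set apart. That run does not cover the effect of a library such as C3. The 5 comparisons are cerulein against saline in each genotype, genotypes within each treatment, and the difference of responses. The labels give no batch.

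The 10 genes, the 3 pathway lists (97 genes) and the 13 marker lists were chosen with earlier results of these data known. Named were the 10 genes, up to 6 called genes per pathway list by size of change, 11 direct partners, and the 3 nearest profiles of each called gene. Pathway genes below the filter were listed by count only. Sequences are from RefSeq on GRCm38.p6. Marker lists were used as summed levels, as counts of called markers and, for Adipoq and Plin1, as single levels.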

Additional observations from a re-analysis of the deposited data

How the results depend on the processing

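The count of the 10 genes called in wild type was 3, against 4 with DESeq2 and 2 with limma-voom on all libraries. It was 5 with only the 2 groups compared, with DESeq2 without C3 and with limma-voom without C3. With no filter on low counts Ptgs2 lost its call (edgeR adjusted p = 0.0934). Leaving out 1 library in turn gave a count of 1 (without K5, O1 or O3) to 5 (without C3). In the labelled knockout it was 0, and 1 with DESeq2, 3 without C3 and N3, 3 with DESeq2 without C3, 2 with limma-voom without C3, and 0 to 3 with 1 library left out. It was 0 under each setting for the other 3 comparisons. Il1rn was also called in wild type without Q1 (adjusted p = 0.0362). Plain library totals moved the median log2 fold change of all genes in wild type from 0.05 to 0.34. Reversed signs were all of genes not called. In wild type Ptgs1 was at -0.55 to 0.35 with 1 library left out, 0.31 with plain totals, 0.05 with no filter, 0.02 with only the 2 groups and 0.19 without R3. Ptges was at -1.36 to 0.96 with 1 library left out, -0.19 with limma-voom, -0.18 with limma-voom without C3 and -1.36 without C3 and N3. Without N3, and without C3 and N3, Il1rap was at -0.00 and -0.01, Pla2g4a at -0.04 and -0.05, and Tnfrsf1b at -0.33 and -0.33; their highest values, without O3, were 0.79, 0.90 and 1.20. With plain totals Il1rl1 was at 0.07 and Ptges2 at 0.17; Il1rl1 ran from -1.82 without N3 to 0.15 without O3, with 0.01 without O1. In the labelled knockout Il1a ran from -1.19 without L4 to 0.47 without S1, and Tnf from -0.82 without Q1 to 0.75 without S1. With limma-voom Il1b was at 0.34 and Tnf at 0.37, and without C3 Il1a was at 0.10, Il1b at 0.69 and Tnf at 0.59. The cause was not tested. Of 1035 gene-level alternatives, 888 kept direction and side of the threshold. No paired analysis was possible because the groups have no animal code in common. With 3 libraries a group, the standard errors of the 10 genes in wild type ran from 0.30 (Tnfrsf1a) to 1.10 (Il1b).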

Other observations

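Ratios of cytokine to cytokine and of receptor to cytokine, per kilobase of exon, did not separate the treatments. Il1b to Il1a was 1.73 to 14.0 with saline (6 libraries) and, leaving C3 aside, 4.70 to 22.2 with cerulein (5 libraries). Tnfrsf1a to Tnf was 9.53 to 185 with saline and 13.3 to 70.9 with cerulein, the value of 185 resting on the 2 counts of Tnf in Q1. Several relatives of the 10 genes were scarcely counted in this tissue: the lymphotoxin gene Lta reached at most 11 counts in a library, Fasl 3, and the prostaglandin D synthase Ptgds 19. Il36b, Il36rn, Il1f10, the prostaglandin D2 receptor Ptgdr and the secreted phospholipase Pla2g10 had 0 counts in all 12 libraries.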
